A study of Mus musculus with 22 samples.

Results

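The genes described are 7 lysosomal proteases of the mouse: the cathepsins Ctsa, Ctsb, Ctsc, Ctsd, Ctsh and Ctsz, and legumain, Lgmn. They were taken by gene symbol from the 37680 genes of a table of RSEM expected counts, and each symbol matched 1 gene identifier. The choice of genes was made with earlier results of these data known, and its wording does not say which measured values they were chosen by. All 7 genes share a lower level in E9.5 than in E7.5 controls, so the stage values are given as a description with no test, and no value of these genes is independent evidence of its direction.

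RNA was sequenced from 22 pools of whole C57BL/6 embryos from females mated with males homozygous for both transgenes. The genotype was ROSA26tg/+; Oct4tg/+ in one line (Oct4 line) and ROSA26tg/+; Nanogtg/+ in the other (Nanog line), in which doxycycline raises the pluripotency factor Oct4 (gene Pou5f1) or Nanog. Controls carried the same transgenes and received no doxycycline. For induced pools, mothers received doxycycline from E4.5 to E7.5, by intraperitoneal injection and then in the drinking water, or from E6.5 to E9.5 in the water alone. A pool of E7.5 held 8 to 12 embryos and one of E9.5 held 3. At E7.5 the Oct4 line had 3 control and 3 induced pools, and the Nanog line 2 control pools (2 and 3) and 3 induced pools (1, 3 and 4). At E9.5 the Oct4 line had 3 control pools and 3 induced pools (3, 4 and 5), and the Nanog line 2 control pools (2 and 3) and 3 induced pools. No group received doxycycline without a transgene, so an effect of the drug and one of the transgene cannot be told apart.

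Lysosomal proteases are made as inactive precursors, carried from the Golgi to endosomes by mannose 6-phosphate receptors, and activated in the acid interior of the lysosome, which a proton pump maintains. Ctsb, Ctsc, Ctsh and Ctsz are cysteine proteases of the papain family, Ctsd is an aspartic protease, Ctsa is a serine carboxypeptidase that also stabilises neuraminidase and beta-galactosidase, and Lgmn cuts after asparagine and processes several cathepsins. In the early mouse conceptus the visceral endoderm, an absorptive layer with large lysosomes, takes up maternal protein and degrades it for the embryo.

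Transcription factors of the Tfeb and Tfe3 family bind the E-box CACGTG, often as GTCACGTG, in many lysosomal promoters. The 250 bases before the annotated start were read from RefSeq promoters of GRCm38.p6 for 5 of the 7 genes, since Ctsb and Ctsh are not in that table. Ctsd, Ctsa and Lgmn held CACGTG, and Ctsc and Ctsz did not in these windows. The windows with the E-box are shown 5′ to 3′ on the strand of the gene, with CACGTG in capitals. They are the window of Ctsd (chr7:142387828-142388077, minus strand), the second of 2 windows of Ctsa (chr2:164833523-164833772, plus strand) and the second of 2 windows of Lgmn (chr12:102439093-102439342, minus strand).
Ctsd: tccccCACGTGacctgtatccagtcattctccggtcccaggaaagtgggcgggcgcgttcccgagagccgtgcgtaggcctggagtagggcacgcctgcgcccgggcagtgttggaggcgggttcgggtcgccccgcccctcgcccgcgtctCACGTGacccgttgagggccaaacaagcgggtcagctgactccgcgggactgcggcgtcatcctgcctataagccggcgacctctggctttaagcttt
Ctsa: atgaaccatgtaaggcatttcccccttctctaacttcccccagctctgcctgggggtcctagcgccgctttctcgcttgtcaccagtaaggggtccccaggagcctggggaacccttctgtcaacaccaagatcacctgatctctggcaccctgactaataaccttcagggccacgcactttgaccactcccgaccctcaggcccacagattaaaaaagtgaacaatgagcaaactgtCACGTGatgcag
Lgmn: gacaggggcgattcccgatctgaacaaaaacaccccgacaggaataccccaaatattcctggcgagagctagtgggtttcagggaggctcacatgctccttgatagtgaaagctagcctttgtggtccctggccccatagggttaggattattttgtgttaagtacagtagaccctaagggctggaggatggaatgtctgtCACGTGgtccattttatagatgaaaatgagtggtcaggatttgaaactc
The E-box began 245 and 98 bases before the start in Ctsd, 12 bases before it in Ctsa and 49 bases before it in Lgmn. CACGTG reads the same on both strands. It was found in 6.86% of 27025 genes with a window of this length, and in 16 of 56 other lysosomal genes (28.6%). The longer GTCACGTG, searched on both strands and always overlapping a CACGTG, was present in the same 3 proteases, in 2.11% of all genes and in 10 of the 56 lysosomal genes. Of 4 other motifs searched on both strands, TATAAA was in Lgmn (14.3% of all genes), AGATAA in Ctsz (11.4%), CCAAT in Ctsz and Lgmn (37.5%), and GGGCGG in Ctsc, Ctsd, Ctsz and Lgmn (35.4%).

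Library totals ran from 4.72 to 42.3 M counts. Pou5f1 rose with induction of the Oct4 line from 229 to 266 CPM in controls to 518 to 684 CPM at E7.5, and from 0.4 to 1.21 CPM to 236 to 258 CPM at E9.5. Nanog went in its own line from 17.0 to 22.6 CPM to 58.9 to 118 CPM at E7.5, and from 1.97 to 2.28 CPM to 321 to 327 CPM at E9.5, and transgene reads cannot be told from endogenous ones. At E7.5 each factor was also higher in the induced pools of the other line. Pou5f1 went in the Nanog line from 219.6 to 242 CPM to 460.3 to 587 CPM. Nanog went in the Oct4 line from 19.1 to 22.5 CPM to 26.5 to 37.2 CPM. In induced pools of E9.5, Pou5f1 was at most 1.74 CPM in the Nanog line and Nanog at most 1.33 CPM in the Oct4 line. The 3 induced Nanog pools of E7.5 stood apart from the other 8 E7.5 pools: gene models shorter than 80 bases summed to 0.575 to 1.13 CPM in them and to 29.0 to 51.9 CPM in the others. Markers of whole E7.5 conceptuses were present, with 15 visceral endoderm genes (such as Apob, Ttr, Afp and Cubn) summing to 1966 to 7228 CPM, whereas in E9.5 pools they summed to 108 to 150.1 CPM. In whole embryos, fewer cells of a type and less RNA per cell cannot be told apart. A difference in the extraembryonic layers collected at the 2 stages cannot be told apart from these either.

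All 7 proteases were more abundant in control embryos at E7.5 than at E9.5, in both lines, and no E7.5 control pool overlapped an E9.5 control pool for any of them. The share of all genes without such overlap was not counted. Levels are in CPM, counts per library total after TMM scaling. The 7 genes together made up 1869 to 2279 CPM in the Oct4 line controls of E7.5, 1466 to 1561 CPM in those of the Nanog line, and 311 to 339 CPM in the E9.5 controls of both lines. The size of the difference varied widely, from 1.84-fold (Oct4 line) and 1.61-fold (Nanog line) for Ctsd to 151-fold and 72.7-fold for Ctsh.

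Ctsh, an aminopeptidase, differed most. It was at 224, 316 and 249 CPM in the Oct4 line controls of E7.5 and at 2.18, 1.54 and 1.33 CPM in those of E9.5. In the Nanog line it was at 157 and 172 CPM and then at 2.34 and 2.28 CPM. The log2 differences, E9.5 minus E7.5, were -7.24 ± 0.22 (SE) and -6.18 ± 0.11. In the Oct4 line 0.723% of the 15770 genes tested, and in the Nanog line 0.988% of 14872, had a difference as low or lower.

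Lgmn stood at 483, 647 and 516 CPM in the Oct4 line at E7.5 and at 26.0, 26.2 and 30.0 CPM at E9.5. In the Nanog line it stood at 388 and 392 CPM and then at 28.3 and 27.1 CPM. These are log2 differences of -4.28 ± 0.13 and -3.85 ± 0.06. Ctsc, the dipeptidyl peptidase that activates granule serine proteases, went from 132, 173 and 135 CPM to 11.0, 10.2 and 7.51 CPM in the Oct4 line, and from 99.3 and 103 CPM to 8.45 and 9.92 CPM in the Nanog line. Its log2 differences were -3.87 ± 0.16 and -3.49 ± 0.09. Lgmn and Ctsc thus lay next to each other in the size of the stage difference, although Lgmn was several times more abundant than Ctsc at E7.5.

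Ctsz, a carboxypeptidase, was at 238 to 263 CPM in the Oct4 line and 204 to 214 CPM in the Nanog line at E7.5, and at 36.8 to 39.2 CPM over the 5 control pools of E9.5. Its log2 differences were -2.64 ± 0.06 and -2.50 ± 0.07. Ctsb, an endopeptidase that also trims dipeptides, was at 472 to 539 CPM and 361 to 421 CPM at E7.5 and at 98.0 to 102 CPM over the E9.5 controls. Its log2 differences were -2.26 ± 0.07 and -1.98 ± 0.07. Both were intermediate among the 7.

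Ctsa and Ctsd differed least. Ctsa was at 133 to 150.0 CPM and 121 to 130.3 CPM at E7.5 and at 49.4 to 62.8 CPM in the E9.5 controls, log2 differences of -1.24 ± 0.08 and -1.32 ± 0.07. Ctsd was at 169, 191 and 172 CPM in the Oct4 line at E7.5 and at 89.0, 93.2 and 96.8 CPM at E9.5. In the Nanog line it was at 126 and 138 CPM and then at 86.1 and 81.9 CPM. Its log2 differences were -0.88 ± 0.06 and -0.69 ± 0.07. The order of the 7 differences was the same in both lines. Since the stage difference may have chosen the genes, the share of all genes that were lower at the later stage, 37.1% in the Oct4 line and 32% in the Nanog line (36.5% and 31.8% were higher, 73.5% and 63.8% differed in either direction), is given beside the 7 of 7 only for scale.

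**Figure D1:**
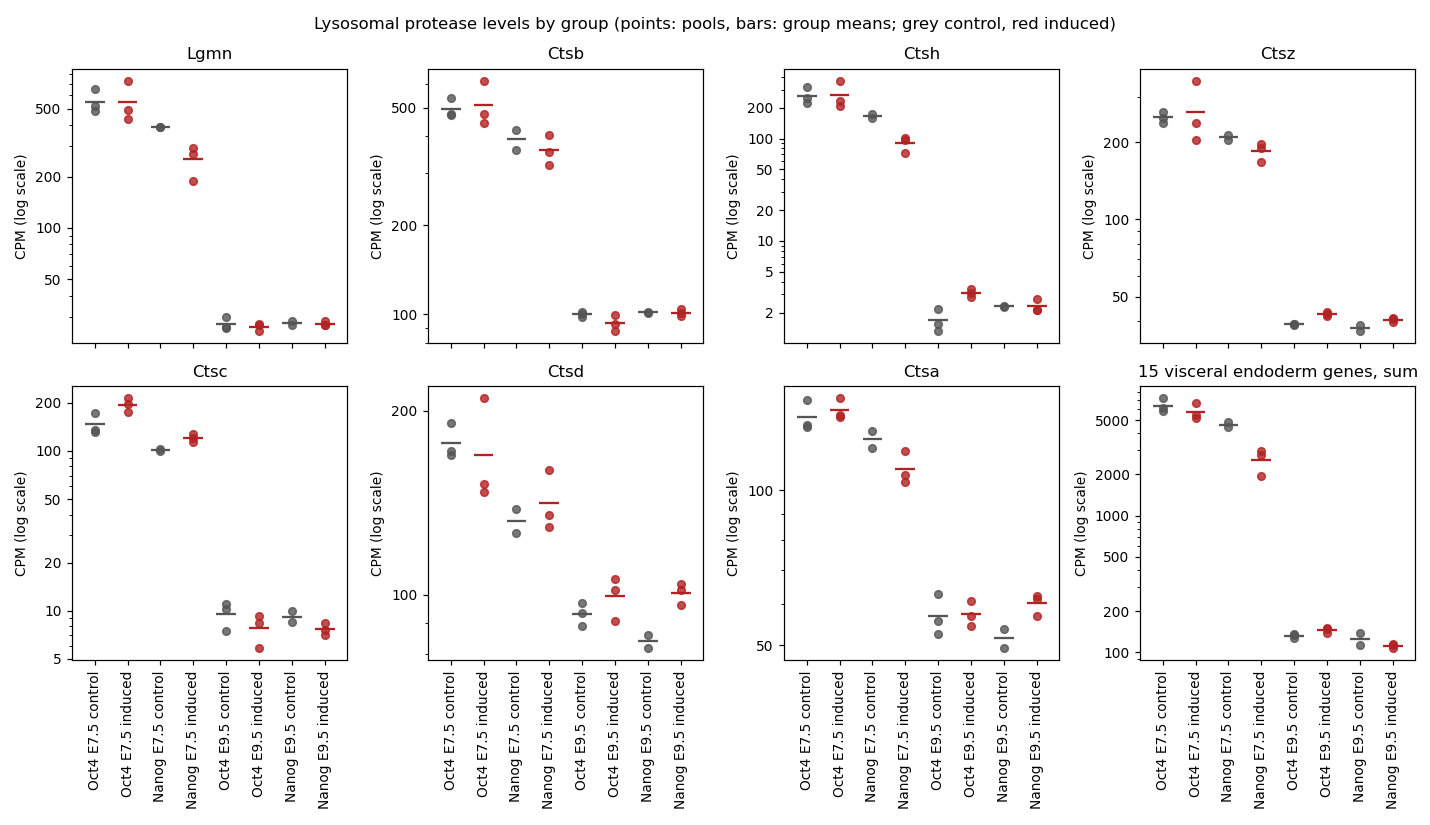
CPM of each protease, and the summed CPM of 15 visceral endoderm genes, in every pool (log axes, points: pools, bars: group means, grey: control, red: induced). Each gene is lower in all 11 pools of E9.5 than in all 11 of E7.5, from a narrow gap for Ctsd (126 CPM against 106 CPM) to a wide one for Ctsh (71.8 CPM against 3.41 CPM).

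The make-up of the group also differed between the stages. Levels between genes were compared as CPM per kilobase of exonic length, the union of all annotated exons of a gene. This length ran from 1441 bases for Ctsz to 5801 bases for Ctsc. It can exceed the length of the transcripts present. No other length was tried, so the places of the genes in an order depend on it. In the Oct4 line controls of E7.5, Lgmn led with 236 ± 37.4 (SD, n = 3), followed by Ctsz with 174 ± 8.58, Ctsb with 105 ± 7.91, Ctsh with 76.2 ± 13.8, Ctsd with 70.3 ± 4.80, Ctsa with 29.5 ± 2.01 and Ctsc with 25.3 ± 3.88. Ctsh overlapped with Ctsd, and Ctsa with Ctsc, and the other neighbours in this order did not overlap. In the E9.5 controls of the same line the order was Ctsd with 36.9 ± 1.55, Ctsz with 27.0 ± 0.200, Ctsb with 21.1 ± 0.423, Ctsa with 12.1 ± 1.11, Lgmn with 11.8 ± 0.984, Ctsc with 1.65 ± 0.316 and Ctsh with 0.488 ± 0.128. There only Ctsa and Lgmn overlapped. Ctsd thus moved from the fifth place to the first and Lgmn from the first to the fifth, while Ctsz stayed in the second and Ctsb in the third.

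The Nanog line showed nearly the same orders. At E7.5 its controls ran from Lgmn (168 ± 1.39 CPM per kilobase, n = 2) over Ctsz (145 ± 4.80) and Ctsb (82.6 ± 8.87) to Ctsc (17.4 ± 0.414), with Ctsd and Ctsh overlapping at 52.4 ± 3.56 and 47.7 ± 3.15. At E9.5 they ran from Ctsd (33.4 ± 1.17) to Ctsh (0.670 ± 0.0129), and Lgmn (11.9 ± 0.362) lay just above Ctsa (10.9 ± 0.652). In the induced Nanog pools of E7.5 Ctsz (128 ± 10.3, n = 3) ranked above Lgmn (108 ± 23.9), but the pools of the 2 genes overlapped.

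**Figure D2:**
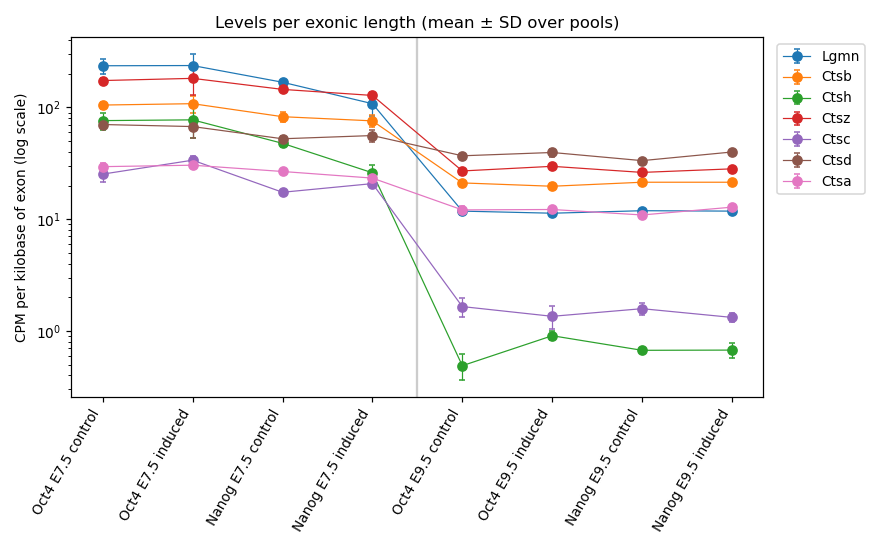
CPM per kilobase of exon of the 7 proteases in the 8 groups (log axis, mean ± SD over 2 or 3 pools, lines join the points of a gene and carry no time course). Lgmn and Ctsh stand lower in the order at E9.5 than at E7.5, Ctsc is in the last 2 places of every group, and Ctsd is at the top of all 4 groups of E9.5.

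Counts of some of the proteases can hold reads of a neighbour. On NCBIM37, the build of the table, exons of Ctsa (chr2:164658373-164666532, plus strand) overlap those of Pltp and Neurl2, exons of Ctsb (chr14:63741302-63764758, plus strand) those of Fdft1, and exons of Ctsz (chr2:174252994-174264540, minus strand) those of Th1l, each on the opposite strand, and the sources used here do not state whether the counting used strand. These neighbours held at most 3700 (Th1l), 1663.84 (Fdft1), 420.95 (Pltp) and 80.48 (Neurl2) counts in a library. Reads on the shared exons were not counted apart, so their part in the protease counts is not known. Exons of Ctsd (chr7:149557053-149573943, minus strand) overlap the gene model 6330512M04Rik on the same strand, which held at most 15 counts in a library. No exon overlap was found for Ctsc (chr7:95426595-95459398, plus strand), Ctsh (chr9:89948990-89970927, plus strand) or Lgmn (chr12:103632294-103678023, minus strand).

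The stage difference was also fitted for other lysosomal genes, from lists of textbook genes. These lists were drawn up with earlier results of these data known, so their counts are not independent evidence of the direction. Of 72 genes in 5 lists, 67 passed the filter on low counts. In the Oct4 line 46 fell from E7.5 to E9.5 and 10 rose, with a median log2 fold change of -0.78 against -0.02 for all genes. Thus 68.7% were lower and 83.6% differed in either direction, beside 37.1% and 73.5% of all genes. In the Nanog line 42 fell and 7 rose, with a median of -0.78 against 0.01. There 62.7% were lower and 73.1% differed in either direction, beside 32% and 63.8% of all genes. These shares of all genes are also the scale for the counts of each list below. A call was an adjusted p under 0.05 in the edgeR quasi-likelihood test over all genes. In each line 15 genes of the 67 had a fold change above 0.

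Among other lysosomal proteases 10 genes were tested in each line, and 7 fell in the Oct4 line and 6 in the Nanog line. The cysteine protease Ctsl was the most abundant, at 935 ± 116 CPM in Oct4 line controls of E7.5 and 104 ± 11.8 CPM at E9.5, log2 fold changes of -3.13 ± 0.11 and -2.65 ± 0.06 in the 2 lines. Dpp7 (-1.78 ± 0.13 and -1.84 ± 0.16), Tpp1 (-1.26 ± 0.10 and -1.04 ± 0.08) and Scpep1 (-1.25 ± 0.08 and -1.01 ± 0.07), which remove residues from peptide ends, fell in both lines. Prcp and Ctsf fell in the Oct4 line (both by 0.39 on the log2 scale) and did not pass in the Nanog line (-0.19 ± 0.10 and -0.03 ± 0.19). Ctso (0.34 ± 0.27 and 0.34 ± 0.39) and Ctsk (0.06 ± 0.68 and -0.64 ± 0.61) passed in neither. Ctse, an aspartic protease, rose in the Oct4 line (2.01 ± 0.33), from 0.366 to 1.42 CPM, and Napsa fell in the Nanog line (-2.28 ± 0.71), from 1.32 to 0.277 CPM. Ctss, a protease of antigen-presenting cells, was at 1.12 to 1.55 CPM in the Oct4 line at E7.5 and at 0 counts in all 3 E9.5 controls, at least 13.2-fold lower against 3 counts over the group, and with this bound the median of the 67 genes was still -0.78. In the Nanog line Ctss fell by 5.39 ± 0.68.

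All 3 protease inhibitors that were tested fell in both lines: Cstb by 2.09 and 1.91, Cst3 by 1.34 and 0.98 and Serpinb6a by 1.58 and 1.44 on the log2 scale. Cstb and Cst3 are cystatins, which block papain-type proteases.

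Among glycosidases, sulfatases and lipid enzymes 17 of 28 fell and 5 rose in the Oct4 line, and 15 fell and 4 rose in the Nanog line. Manba (-2.92 ± 0.14 and -2.83 ± 0.16), Neu1 (-2.36 ± 0.11 and -1.88 ± 0.12) and Hexa (-1.80 ± 0.07 and -1.43 ± 0.09) cleave sugars from glycans and glycolipids, and Psap, the precursor of the saposins, fell by 0.85 and 1.05. Neu1, which the Ctsa protein stabilises, differed more between stages than Ctsa. Idua, Ids and Ppt1 rose in both lines (Idua by 0.89 ± 0.16 and 1.04 ± 0.24), Naglu and Arsb in the Oct4 line (0.76 ± 0.16 and 0.79 ± 0.21) and Acp2 in the Nanog line (0.23 ± 0.08).

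Of 17 genes of the lysosomal membrane and proton pump 13 fell in each line. They included Lamp1, a main glycoprotein of the lysosomal membrane (-1.46 ± 0.06 and -1.18 ± 0.05), the tetraspanin Cd63 (-1.73 ± 0.07 and -1.71 ± 0.06), the cholesterol exporter Npc1 (-1.29 ± 0.08 and -1.34 ± 0.08) and the pump subunit Atp6v1a (-1.36 ± 0.07 and -0.96 ± 0.06). The subunit Atp6v1b2 also fell in both lines (-1.06 ± 0.05 and -0.91 ± 0.06). Scarb2, the receptor that carries beta-glucocerebrosidase to lysosomes, rose in both lines (1.23 ± 0.09 and 1.27 ± 0.13), and Lamp2 rose in the Nanog line (0.29 ± 0.06).

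Of 9 genes for sorting and transcription 6 fell in the Oct4 line and 5 in the Nanog line. Tfeb, a transcription factor of lysosomal genes, fell most, from 33.0 to 1.42 CPM and from 19.9 to 0.986 CPM, log2 fold changes of -4.50 ± 0.16 and -4.35 ± 0.24. Its relative Tfe3 fell by 1.07 and 1.31, the mannose 6-phosphate receptor M6pr by 0.96 and 0.69, and the enzymes that make the mannose 6-phosphate tag by 0.92 and 0.83 (Gnptab) and 1.26 and 1.40 (Nagpa). Gnptg fell in the Oct4 line (-0.36 ± 0.11) and was at -0.06 ± 0.15 in the Nanog line. Sort1, another sorting receptor, rose (0.94 ± 0.07 and 0.71 ± 0.07), as did Mitf (0.66 ± 0.22) and Igf2r, the larger mannose 6-phosphate receptor (0.13 ± 0.05), in the Oct4 line. Lysosomal genes with CACGTG in the window before the start had a median log2 fold change of -0.59 (15 genes) and those without it -0.76 (39 genes) in the Oct4 line, and -0.69 and -0.74 in the Nanog line.

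Markers of other tissues also differed between the stages, those of parietal endoderm least by median. All 15 visceral endoderm genes fell in both lines, with a median log2 fold change of -7.54 in each, among them Apoc2 (-11.38 ± 0.17 and -9.70 ± 0.12) and Apom (-8.22 ± 0.17 and -7.82 ± 0.14). All 7 proteases lay above that median, with Ctsh closest to it. Summed macrophage markers were at 13.5 to 25.4 CPM in E7.5 controls and at 6.29 to 9.55 CPM in E9.5 controls, and of 8 cathepsins of the placenta 5 were at 0 in E7.5 controls and 7 at E9.5. Of the trophoblast markers 5 of 7 fell in the Oct4 line (median -4.12) and 5 of 6 in the Nanog line (median -4.65). Of 9 parietal endoderm markers 5 fell and 1 rose in the Oct4 line (median -0.23). In the Nanog line 4 of these fell and 1 rose (median -0.55). The mitochondrial share was 3.30% to 5.51% of counts in E7.5 controls and 2.38% to 2.88% in those of E9.5. Gene models under 80 bases also differed, from 29.0 to 51.9 CPM to 0.634 to 1.70 CPM. The part of these markers, of the layers collected at each stage and of the library differences in the stage values was not tested.

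**Figure D3:**
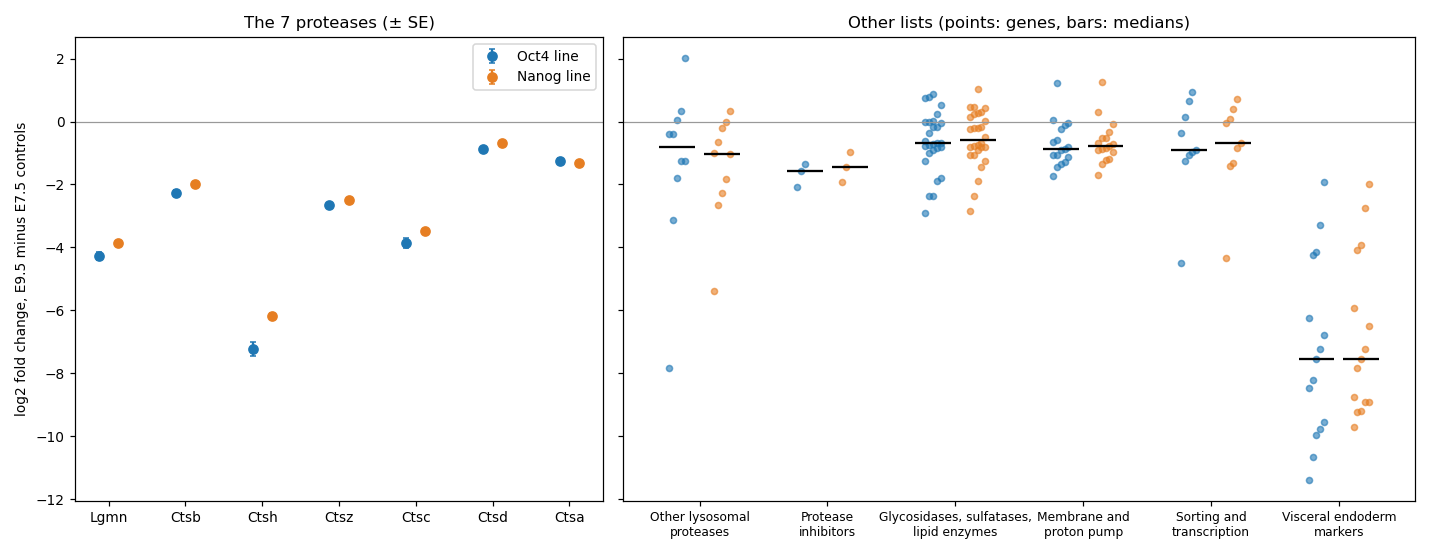
Log2 fold change from E7.5 to E9.5 controls of the 7 proteases (left, ± SE) and of the tested genes of 5 lysosomal lists and the visceral endoderm list (right, points: genes, bars: list medians, blue: Oct4 line, orange: Nanog line). The proteases span -0.69 to -7.24, the lysosomal lists have medians between -0.59 and -1.58, and visceral endoderm genes have a median of -7.54. The lowest point of the other proteases is Ctss, whose fitted value in the Oct4 line rests on a group at 0 counts.

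With Oct4 induced at E7.5, Ctsc was the only one of the 7 proteases whose induced and control pools did not overlap. With so few pools, groups can separate without a difference, and the share of all genes without overlap was not counted. Separation of pools is therefore a description here and in the other inductions. Ctsc was at 132, 173 and 135 CPM in controls and at 196, 214 and 176 CPM in induced pools, so all induced pools were above all controls. The log2 fold change was 0.44 ± 0.11, with an adjusted p of 0.0628 in edgeR. None of the 7 was called, where 6.17% of all genes were (2.25% higher, 3.91% lower). By unadjusted p under 0.05 the count was 1, DESeq2 called 1 and limma-voom 0. Ctsc passed with DESeq2 (adjusted p = 0.00957), without a filter on low counts (0.0349), in 1 model over all libraries (0.0079), with the replicate number as a block (0.44 ± 0.08, 0.013) and without control pool 2 (0.0196), in a range of 0.0079 to 0.263 over all settings. Macrophage markers summed to 13.5 to 18.8 CPM in controls and 13.7 to 18.2 CPM in induced pools. Maternal decidua and blood markers summed to 195 to 539 CPM and 327 to 597 CPM, with 2 of 10 called higher. Both of the following sets were lower in every induced pool than in every control. Parietal endoderm markers summed to 1414 to 1760.4 CPM in controls and 1306 to 1369 CPM in induced pools, with all 9 fold changes below 0 and 2 called (Plat and Lama1). Trophoblast markers summed to 1383 to 1635 CPM and 1103 to 1318 CPM, and most of the sum was Peg10 (-0.27 ± 0.09, adjusted p = 0.148). The part of these markers in the Ctsc values was not tested.

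The other 6 genes had log2 fold changes between -0.04 ± 0.13 (Ctsd) and 0.09 ± 0.16 (Ctsz), and their induced pools disagreed. Induced pool 2 was above every control for Lgmn (725 CPM against at most 647 CPM), Ctsb (616 against 539), Ctsh (364 against 316), Ctsz (347 against 263), Ctsd (209.6 against 191) and Ctsa (151 against 150.0). Induced pool 1 was below every control for Lgmn (435 CPM), Ctsb (445), Ctsh (206), Ctsz (204) and Ctsd (147). Among the controls, pool 2 was the highest for all 7 genes. The visceral endoderm sum was 7228 CPM in control pool 2 and 5796 and 6108 CPM in the others, and 6683 CPM in induced pool 2 and 5441 and 5152 CPM in the others. The pools highest in the proteases were thus also highest in this sum within their group. The lowest induced pool differed: pool 3 in the sum (5152 CPM), and pool 1 in Lgmn, Ctsb, Ctsh, Ctsz and Ctsd. Induced pool 2 was below control pool 2 in the sum. Of the 15 visceral endoderm genes 12 had a fold change below 0 and 3 above, with Lrp2 called lower (-0.52 ± 0.10). Of the 7 proteases 6 were above 0 and 1 below. The part of the visceral endoderm was not tested.

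Induction of Nanog at E7.5 went with less Ctsh and with values for Lgmn in the same direction. Ctsh fell from 157 and 172 CPM to 100.4, 97.4 and 71.8 CPM, a log2 fold change of -0.89 ± 0.13 (adjusted p = 0.00718, edgeR). Lgmn was at 388 and 392 CPM in controls and at 272, 294 and 189 CPM in induced pools, -0.65 ± 0.16 (adjusted p = 0.0505). In both genes all induced pools were below both controls, and induced pool 4 was the lowest. Of the 7 genes 1 was called, 14.3%, beside 7.78% of all genes (2.96% higher, 4.82% lower).

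The other 5 proteases did not pass in the Nanog line at E7.5. Ctsa was at 121 and 130.3 CPM and then at 107, 119 and 104 CPM (-0.21 ± 0.08, adjusted p = 0.164), and Ctsz at 214 and 204 CPM and then at 189.7, 197 and 168 CPM (-0.19 ± 0.09, adjusted p = 0.215). Their induced pools were all below both controls. Ctsb (-0.14 ± 0.10) and Ctsd (0.08 ± 0.10) overlapped between the groups. Ctsc again had every induced pool above every control, at 127, 120.2 and 114 CPM against 99.3 and 103 CPM (0.24 ± 0.09, adjusted p = 0.14).

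The call of Ctsh rests on 2 control pools: without control pool 2 the adjusted p was 0.0542 and without control pool 3 it was 0.085, in a range of 0.00277 to 0.085 over the leave-one-out fits and 6.38e-07 to 0.00724 over the other settings. Lgmn passed in 4 of the 6 other settings, with DESeq2 at 0.00162, and without induced pool 4 (-0.50, adjusted p = 0.0069), with adjusted p between 0.00162 and 0.262 over all settings. Summed visceral endoderm markers went from 4441 to 4805 CPM in controls to 1966 to 2956 CPM in induced pools, with 9 of 15 genes lower and 0 higher, among them Lrp2 (-1.45 ± 0.16) and Apoa1 (-0.69 ± 0.11). Induced pool 4 was also the lowest in this sum, at 1966 CPM. Trophoblast markers had a median log2 fold change of 1.39 over 7 genes, with 5 fold changes above 0 and 2 below 0. Of the 7 genes only Elf5 was called (1.47 ± 0.19, adjusted p = 0.00671). Plac1 (1.97 ± 0.49), Prl3d1 (1.87 ± 0.95), Ascl2 (1.39 ± 0.58) and Tfap2c (1.25 ± 0.39) were above both controls in every induced pool without passing. The sum of the trophoblast markers overlapped, at 1437 to 1635 CPM in controls and 1446 to 1908 CPM in induced pools. The induced pools were also those with few reads on gene models under 80 bases, and their mitochondrial share was 5.27% to 8.26% against 3.30% to 3.63% in controls. These library differences hold all 3 induced pools and neither control, so they and the induction cannot be told apart, and the part of the visceral endoderm and trophoblast was not tested.

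**Figure D4:**
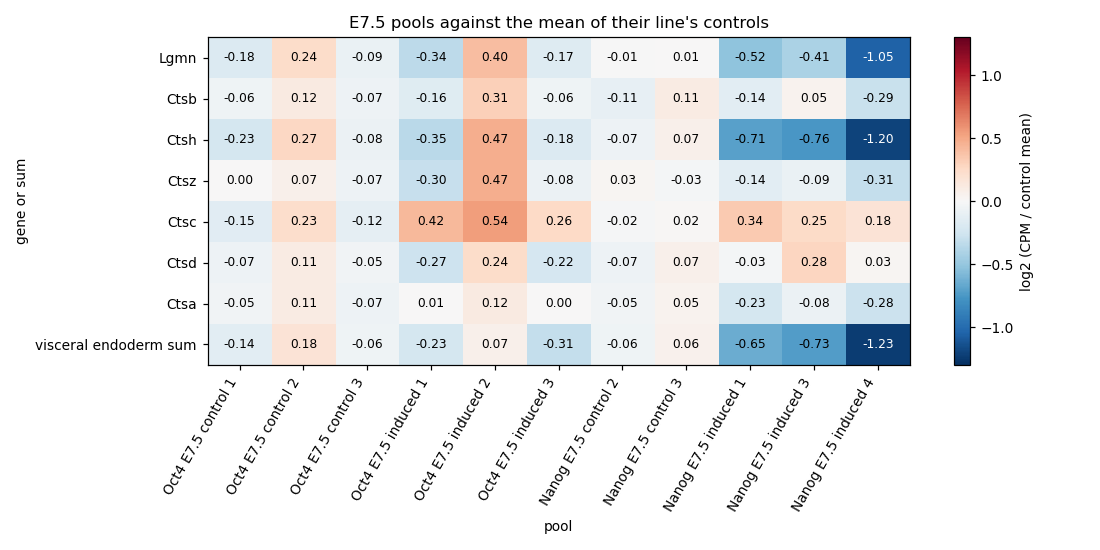
Log2 ratio of the CPM of each E7.5 pool to the mean of the control pools of its line, for the 7 proteases and the visceral endoderm sum (colour and printed value). Ctsc is above 0 in all 6 induced pools (0.18 to 0.54), and induced Oct4 pool 2 is above 0 in every row. Ctsh and the visceral endoderm sum have close values in the induced Nanog pools (-0.71, -0.76 and -1.20 against -0.65, -0.73 and -1.23). In the induced Oct4 pools they lie further apart (-0.35, 0.47 and -0.18 against -0.23, 0.07 and -0.31). The other proteases lie above the sum in every induced Nanog pool, Ctsd at -0.03, 0.28 and 0.03.

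At E9.5 Ctsh was at a low level in the Oct4 line, and higher in induced than in control pools by a call that depended on the fit. The pools held 11 to 32 counts of it. Ctsh was at 2.18, 1.54 and 1.33 CPM in controls and at 2.84, 3.13 and 3.41 CPM in induced pools, 0.91 ± 0.28 on the log2 scale (adjusted p = 0.0442, edgeR). The induced level was still far below the 71.8 to 364 CPM of the E7.5 pools. The call ended with DESeq2 (0.235), in 1 model over all libraries (0.439) and in 5 of the 6 leave-one-out fits (0.0302 to 0.183), and stayed without control pool 1. The range over the settings other than leave-one-out was 0.0336 to 0.439.

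No other protease passed in this comparison, so that 1 of 7 was called (14.3%) beside 9.29% of all genes (4.69% higher, 4.61% lower). Ctsz went from 39.2, 38.6 and 38.9 CPM to 43.4, 42.0 and 42.8 CPM, without overlap (0.16 ± 0.06, adjusted p = 0.117). Ctsd (0.13 ± 0.06), Ctsa (0.03 ± 0.07), Lgmn (-0.02 ± 0.08), Ctsb (-0.09 ± 0.05) and Ctsc (-0.24 ± 0.17) overlapped. The visceral endoderm sum was at 127 to 136 CPM in controls and 139 to 150.1 CPM in induced pools, and of its 10 tested genes Apoa1 (1.37 ± 0.35) and Rbp4 (0.95 ± 0.23) rose. The 10 genes listed as maternal decidua and blood summed to 505 to 775 CPM in controls and 941 to 1226 CPM in induced pools. Of these genes 3 were under 1 CPM in every control pool and 7 in every induced pool. Only 2 were tested, and both are haemoglobin genes: Hbb-b1 rose (2.17 ± 0.29, adjusted p = 0.0235) and Hba-a1 was at 0.67 ± 0.20 (adjusted p = 0.151). Whether the haemoglobin reads were maternal or embryonic was not tested, so the sum is no measure of maternal tissue at E9.5. The part of both marker sets in the Ctsh value was not tested.

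With Nanog induced at E9.5, Ctsd and Ctsa were called higher, by calls that depended on the fit. Ctsd rose from 86.1 and 81.9 CPM to 96.4, 104 and 102 CPM (0.29 ± 0.07, adjusted p = 0.00505, edgeR). Ctsa rose from 53.7 and 49.4 CPM to 56.9, 62.4 and 61.6 CPM (0.26 ± 0.08, adjusted p = 0.0233). Both changes were of about 1.2-fold, and no induced pool overlapped a control. Of the 7 genes 2 were called, 28.6%, beside 28.4% of all genes (15.4% higher, 13% lower), so the share of the proteases lay near that of all genes.

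Ctsz was also without overlap, at 36.8 and 38.6 CPM against 41.1, 39.9 and 40.8 CPM (0.14 ± 0.08, adjusted p = 0.239), and so was Ctsc in the other direction, at 8.45 and 9.92 CPM against 8.33, 7.02 and 7.61 CPM (-0.24 ± 0.17, adjusted p = 0.328). Ctsb (0.03 ± 0.07), Lgmn (0.02 ± 0.10) and Ctsh (0.04 ± 0.31) overlapped. The call of Ctsd ended in 1 model over all libraries (0.115) and without control pool 3 (0.0744), in a range of 0.00232 to 0.115. That of Ctsa ended with DESeq2 (0.0824), in 1 model over all libraries (0.0663) and without control pool 2 (0.0653), control pool 3 (0.225) or induced pool 3 (0.0597), in a range of 0.0121 to 0.225. Markers of parietal endoderm summed to 1006 to 1055 CPM in controls and 1155 to 1276 CPM in induced pools, with 5 of 9 higher. The sum of the maternal decidua and blood list was lower in induced pools, at 337 to 428 CPM against 637 to 910 CPM. Of its 10 genes 7 were under 1 CPM in every control pool and 8 in every induced pool. Its 2 tested genes, both haemoglobin genes, moved in opposite directions, Hba-a1 by -1.22 ± 0.24 and Hbb-b1 by 1.59 ± 0.10. The mitochondrial share was 2.82% to 2.88% of counts in controls and 2.23% to 2.44% in induced pools. The part of these differences in the Ctsd and Ctsa values was not tested.

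**Figure D5:**
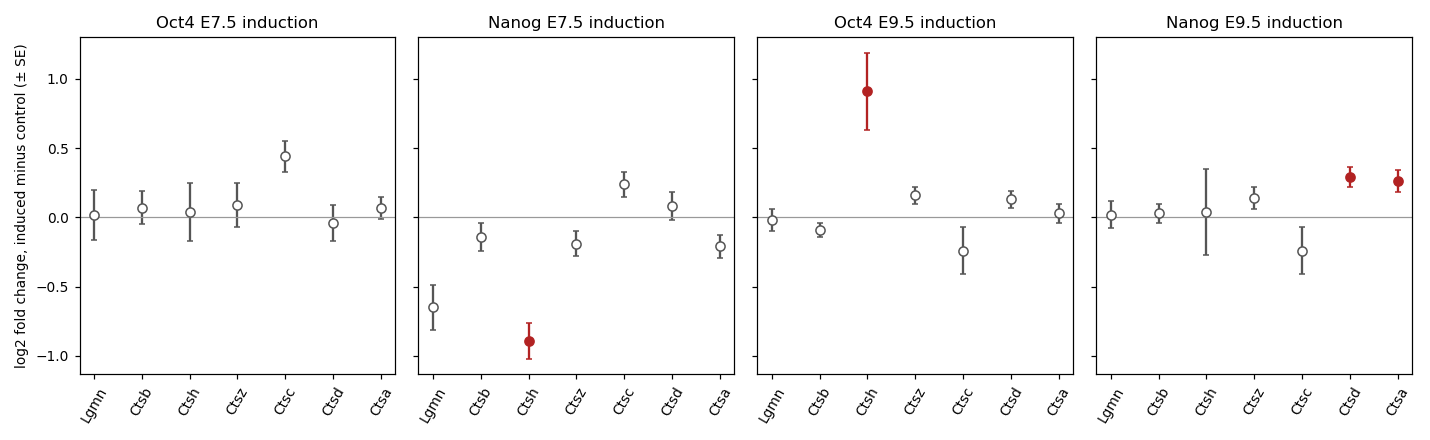
Log2 fold change (± SE) of each protease in the 4 inductions (filled red: adjusted p under 0.05 in edgeR, open grey: not called). Ctsh is called at -0.89 in the Nanog line at E7.5 and at 0.91 in the Oct4 line at E9.5, and Ctsd and Ctsa are called at 0.29 and 0.26 in the Nanog line at E9.5.

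The responses to Oct4 and to Nanog were compared directly as an interaction. None of the 7 proteases passed at E7.5, where 0.204% of all genes did (0.138% higher, 0.0659% lower), or at E9.5, where 13.5% did (5.57% higher, 7.92% lower). By unadjusted p under 0.05 the edgeR counts were 3 and 1, and DESeq2 and limma-voom called 0 at both stages. The largest differences, Oct4 minus Nanog, were those of Ctsh, 0.92 ± 0.32 at E7.5 (adjusted p = 0.365) and 0.88 ± 0.41 at E9.5 (adjusted p = 0.159). At E7.5 Lgmn differed by 0.66 ± 0.30 and Ctsa by 0.26 ± 0.12, with adjusted p of 0.491 and 0.473. A different response of any protease to the 2 factors was therefore not shown. At E7.5 Pou5f1 and Nanog were both higher in the induced pools of each line, so this comparison does not set 1 factor alone against the other there.

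The share of other lysosomal genes called with induction ran from 2.99% to 19%. With Oct4 at E7.5, 1 of 67 rose and 1 fell (2.99% called, beside 6.17% of all genes): Tfe3 rose by 0.36 ± 0.09 and Igf2r fell by 0.47 ± 0.08. The count was 0 without control pool 1 and without induced pool 3, and 1 without control pool 2, control pool 3 or induced pool 1. With Nanog at E7.5, 3 of 66 rose and 4 fell (10.6% called, beside 7.78% of all genes). Scpep1, a serine carboxypeptidase, fell with Igf2r (-0.84 ± 0.08), Lipa, the acid lipase (-0.61 ± 0.13), and Npc1 (-0.47 ± 0.09), and Scpep1 itself was at -0.57 ± 0.11. Gusb, a glucuronidase (0.53 ± 0.14), Cd63 (0.50 ± 0.13) and the cholesterol carrier Npc2 (0.47 ± 0.11) rose. The count of 7 was 1 without control pool 2 and 1 without control pool 3. Igf2r thus fell in both lines at E7.5, and the induced pools of the 2 lines are different embryos with their own controls.

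At E9.5 the aspartic protease Napsa had the largest change of the lysosomal lists. It was at 0.133 to 0.242 CPM in Oct4 line controls and at 2.15 to 4.17 CPM in induced pools (4.10 ± 0.43, adjusted p = 5.24e-06). With Oct4, 7 of 66 lysosomal genes rose and 1 fell (12.1% called, beside 9.29% of all genes). Among them, Hexa (0.57 ± 0.08), Arsa, a sulfatase (0.43 ± 0.13), Tfe3 (0.34 ± 0.07), Igf2r (0.19 ± 0.04) and Atp6v1b2 (0.14 ± 0.04) rose, and Scarb2 fell by 0.40 ± 0.08. The count was 5 without control pool 2 or without induced pool 4.

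With Nanog at E9.5, 8 of 63 lysosomal genes rose and 4 fell, and this share of 19% lay below the 28.4% of all genes. The inhibitor Cst3 (0.36 ± 0.09), Scpep1 (0.27 ± 0.08), the enzymes Arsa (0.46 ± 0.16), Gaa (0.43 ± 0.12) and Smpd1 (0.37 ± 0.12), Npc2 (0.22 ± 0.07), the pump subunit Tcirg1 (0.46 ± 0.16) and Tfe3 (0.30 ± 0.10) rose. The pump subunits Atp6v1h (-0.37 ± 0.08) and Atp6v1a (-0.24 ± 0.07) fell, with Lamp2 (-0.30 ± 0.09) and Gnptab (-0.24 ± 0.08). Without control pool 2 the count was 2, without control pool 3 it was 4 and without induced pool 2 it was 7.

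The genes whose pattern over the 22 libraries was most like that of the 7 proteases were, by Pearson correlation of log2 values (pseudocount 0.5 CPM) with the mean of the proteases' standardised values, Ctsl (0.997), Pla2g12b (0.996), Apoe (0.996), Lamp1 (0.995), Cited1 (0.995), Bex1 (0.995), Creb3l3 (0.994) and Slc16a1 (0.994), out of 11456 genes whose mean reached 5 CPM. Libraries of both stages enter these values, and the gap between the stages is part of each of them. Within the 11 libraries of E7.5, Lamp1 led with 0.989, followed by Ssna1 (0.986), Sigirr (0.985), Folr1 (0.984) and the pump subunit Atp6v1e1 (0.983). Within the 11 of E9.5, where the proteases varied little, the closest gene, Cd276, reached 0.921. Of lysosomal genes outside the 7, Lamp1 was among the 8 closest over all libraries and within E7.5, and Ctsl only over all libraries. Of the visceral endoderm list, Cited1 was among them only over all libraries and Amn only within E7.5 (0.978). None of these genes was among the 8 closest within E9.5.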

How the data were processed

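Pools of whole embryos were grouped by transgene, stage and doxycycline, as the labels give them. The deposited values are RSEM expected counts per gene and library. The submitters' processing notes name the mouse build NCBIM37, RSEM 1.17, Picard, limma and cutadapt. The sequencer of each library and the strand of the counts are not given in the sources used here. Of the values of a library 12.8% to 21.4% are not whole numbers, and counts were rounded before testing. RSEM divides reads between genes that share them, so such genes are uncertain.

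Symbols, positions and exonic lengths came from the Ensembl 65 gene models, which held 37309 of 37680 identifiers. Tfeb, Tfe3 and Tfap2c were matched through older symbols, and Glb1, which matched more than 1 identifier, was left out. Each comparison was fitted over the whole table on its own groups with edgeR 4.0.16 (quasi-likelihood F test, two-sided, TMM scaling, filterByExpr, robust dispersions) in R 4.3.3. Interactions used 4 groups. The SE of a log2 fold change was derived from the test, as its absolute value divided by the square root of F. A call is a Benjamini-Hochberg adjusted p under 0.05, and adjusted p-values are edgeR's where no other tool is named. Alternatives were DESeq2 1.42.0, limma-voom (limma 3.58.1), DESeq2 size factors, library totals, no filter, 1 model over 22 libraries, leaving out each pool, and the replicate number as a block. The scripts were tested on simulated data.

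Levels are CPM on TMM-scaled totals of 4.72 to 42.3 M counts. A count of 0 allows up to 3 counts, 0.0709 to 0.636 CPM per library, which covers counting error alone, because reads carry no molecular identifiers. Replicates are pools, and nothing says that pools came from separate litters, so p-values measure the spread between these pools. No library was a copy of another of its group (in 20 pairs of one group, chi-square divided by its degrees of freedom was 1.6 to 67.06). Pairs across groups were not compared. The proteases and the lists were chosen with earlier results of these data known. Named genes are the 7 proteases, the tested genes of the protease and inhibitor lists, of the other lysosomal lists and visceral endoderm up to 4 called genes with the lowest p and all where at most 5 were called in a direction, and the 8 genes most like the proteases. Visceral endoderm genes named beyond this, genes of the other marker lists, Folr1 and the other closest genes within a stage were chosen after their values were seen. Results of some genes of these lists are not given by name.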

Additional observations from a re-analysis of the deposited data

Results flagged for a closer look

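The responses of 7 other lysosomal genes to Oct4 and to Nanog at E9.5 differed by the interaction test (edgeR, adjusted over all genes), 10.6% of the 66 tested, beside 13.5% of all genes. Of the 7 calls, 6 ended in at least 1 of 11 fits that left out 1 pool each. Napsa differed by 3.96 ± 1.03 on the log2 scale, Oct4 minus Nanog (adjusted p = 0.0129), and was at 2.15 to 4.17 CPM in induced Oct4 pools and at 0.163 to 0.387 CPM in induced Nanog pools. Atp6v1h differed by 0.43 ± 0.10 (adjusted p = 0.00685). Hexa differed by 0.43 ± 0.14 (adjusted p = 0.0473). Lamp2 differed by 0.36 ± 0.10 (adjusted p = 0.025). Atp6v1b2 differed by 0.26 ± 0.07 (adjusted p = 0.0153). Atp6v1a differed by 0.23 ± 0.07 (adjusted p = 0.0479). Scarb2 differed in the other direction, by -0.41 ± 0.13 (adjusted p = 0.0426). Atp6v1h passed in all 11 leave-one-out fits (at most 0.0385). Napsa and Atp6v1b2 passed in 10 of them and ended without Nanog line control pool 3 (Napsa 2.0, adjusted p = 0.558, Atp6v1b2 0.23, adjusted p = 0.0734). Lamp2 passed in 5 fits, Hexa in 4, Atp6v1a in 2 (without Oct4 line control pool 1 or induced pool 5) and Scarb2 in 1 (without Nanog line induced pool 3). Their adjusted p reached 0.0855, 0.2, 0.161 and 0.145. Lamp2 ended without control pool 2 or induced pool 3 or 4 of the Oct4 line and without control pool 2 or 3 or induced pool 2 of the Nanog line. Hexa ended without control pool 1 or 2 or induced pool 3 or 4 of the Oct4 line and without control pool 2 or induced pool 1 or 3 of the Nanog line.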

How the results depend on the processing

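The stage values of the 7 proteases kept their direction in every alternative run, and the counts of the interactions stayed at 0. The induction counts are small and changed. The number of proteases called with Oct4 at E7.5 was 0, and became 1 with DESeq2, without a filter on low counts, in 1 model over 22 libraries and with the replicate number as a block, and 0 to 1 when 1 pool was left out. With Nanog at E7.5 it was 1, became 2 with library totals, DESeq2, no filter and the model over 22 libraries, and was 0 to 2 when 1 pool was left out. With Oct4 at E9.5 it was 1 and became 0 with DESeq2 and the model over 22 libraries, and 0 to 1 without a pool. With Nanog at E9.5 it was 2, became 1 with DESeq2 and 0 with the model over 22 libraries, and was 0 to 2 without a pool. Of the other lysosomal genes, 2 were called with Oct4 at E7.5, 1 with library totals and 0 to 2 without a pool. With Nanog at E7.5, 7 were called, 16 in the model over 22 libraries and 1 to 9 without a pool. With Oct4 at E9.5, 8 were called, 4 with DESeq2, 2 in the model over 22 libraries and 5 to 8 without a pool. With Nanog at E9.5, 12 were called, 5 with DESeq2, 2 in the model over 22 libraries, 7 with the replicate block and 2 to 9 without a pool. The causes were not tested. Same-numbered pools share only a number: the correlations of their deviations in Oct4 E7.5 were 0.14, 0.151 and 0.015, and every pool correlated best with its own number, a hint from the data and not from the design, and in Nanog E9.5 they were -0.088 and 0.024. The block could not be fitted for the inductions of Nanog at E7.5 and Oct4 at E9.5, which share 1 number. A pool left alone in its group by a leave-one-out fit is assumed to vary like the other group. Depth limits Ctsh at E9.5, where 3 counts were 0.19 to 0.636 CPM.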
